A study of Mus musculus with 37 samples.

Results

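Cyp2b9, Cyp2b10 and Cyp2b13 are 3 cytochrome P450 genes that were read in mouse liver by 4 probes, out of 21450 genes and 30146 probes on the assay. The genes were named by symbol, and every probe carrying one of these symbols was taken, whatever its values. Cyp2b10 had 2 probes (named Cyp2b10_30803 and Cyp2b10_71476), Cyp2b9 had 1 (Cyp2b9_64286) and Cyp2b13 had 1 (Cyp2b13_55982), and all 4 passed the filter on low counts. Cyp2b13 passed it through its counts in females. The group was selected on the differences between vehicle and 5 mg/kg mice of each sex, for the genes' running in opposite directions. That description held for Cyp2b9 and Cyp2b13 and did not hold for Cyp2b10, which had lower group means at 5 mg/kg than in vehicle controls in both sexes. Since the genes were chosen by vehicle and 5 mg/kg values, every comparison of these 3 genes that includes those mice is given as a description, without a test. Tests on them were made only between mice at 0.1 and 0.5 mg/kg.

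The livers came from 37 wild-type adult Crl:CD1(ICR) mice, an outbred stock, given HFPO-DA (the ammonium salt of hexafluoropropylene oxide dimer acid, a short-chain perfluoroalkyl substance) in deionized water by daily oral gavage. The 19 males were sires that received 84 to 85 doses, starting well before mating and ending with the mating period. The 18 females were dams that received 53 to 65 doses, starting shortly before mating and ending late in lactation, so that the females were lactating when liver was taken. Group sizes from vehicle upward through the doses of 0.1, then 0.5, then 5 mg/kg were 5, 5, 5 and 4 for males, and 5, 5, 4 and 4 for females. Sex, lactation, age at first dose and number of doses cannot be told apart here, and "sex" below stands for all of them. Formalin-fixed, paraffin-embedded sections were scraped and read by TempO-Seq, in which a pair of detector oligos is ligated on its target transcript and the product is sequenced and counted.

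Total counts per library ran from 2101495 to 10548222 in males and from 7952605 to 13878254 in females, and each library matched its labelled sex by the Y-linked gene Ddx3y. The libraries of replicates 1 and 3 of the males at 5 mg/kg were among the 4 under 5000000 counts, and without those 4 the male log2 difference at 5 mg/kg was 3.75 for Cyp2b9 and -1.3 for Cyp2b10_30803. The smallest library, and the only male library at 5 mg/kg with no Cyp2b13 count, was replicate 3 of that group. Levels are given as CPM, which are counts scaled to the same normalized library size in every mouse. Because a probe's yield depends on its own sequence and no transcript length enters, levels are compared between mice for 1 probe and not between probes. In bulk sections, fewer cells expressing a gene and less transcript per cell cannot be told apart.

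Cytochrome P450 enzymes of the CYP2B subfamily are membrane-bound oxygenases of the hepatocyte endoplasmic reticulum that oxidize drugs, steroids and fatty acids. Cyp2b10 is the classical mouse target of the constitutive androstane receptor (CAR, gene Nr1i3), which is activated by phenobarbital-like compounds, and is also driven by the pregnane X receptor (PXR, gene Nr1i2). Cyp2b9 and Cyp2b13 are known as female-predominant genes of mouse liver, held low in males by the pulsed pattern of growth hormone. The genes sit in 1 cluster on chromosome 7, where RefSeq (GRCm38.p6) lists Cyp2b10, then Cyp2b13, then Cyp2b9, with Cyp2b pseudogenes between them and Cyp2a4, Cyp2b23, Cyp2b19, Cyp2a5, Cyp2a22 and Cyp2a12 further along.

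The 250 bases before the start of each gene are shown because Cyp2b9 and Cyp2b13 are almost the same there while Cyp2b10 is not. Whether these bases bear on the levels of the genes was not tested. All 3 are from RefSeq on GRCm38.p6, plus strand, written 5′ to 3′: Cyp2b9 at chr7:26173159-26173408, Cyp2b13 at chr7:26061245-26061494 and Cyp2b10 at chr7:25897408-25897657. Capitals mark a match to TTGCNNAA in Cyp2b10, a letter pattern of the C/EBP transcription factors of hepatocytes, and the bases aligned to it in the others.
Cyp2b9: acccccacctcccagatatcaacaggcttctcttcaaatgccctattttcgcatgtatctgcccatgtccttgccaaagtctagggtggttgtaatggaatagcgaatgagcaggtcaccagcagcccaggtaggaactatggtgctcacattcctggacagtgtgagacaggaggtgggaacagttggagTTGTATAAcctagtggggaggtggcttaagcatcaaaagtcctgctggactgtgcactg
Cyp2b13: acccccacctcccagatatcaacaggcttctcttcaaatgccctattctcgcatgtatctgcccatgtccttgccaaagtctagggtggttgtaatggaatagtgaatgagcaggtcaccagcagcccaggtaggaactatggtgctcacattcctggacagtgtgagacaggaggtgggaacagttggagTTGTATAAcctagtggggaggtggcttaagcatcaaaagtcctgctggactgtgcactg
Cyp2b10: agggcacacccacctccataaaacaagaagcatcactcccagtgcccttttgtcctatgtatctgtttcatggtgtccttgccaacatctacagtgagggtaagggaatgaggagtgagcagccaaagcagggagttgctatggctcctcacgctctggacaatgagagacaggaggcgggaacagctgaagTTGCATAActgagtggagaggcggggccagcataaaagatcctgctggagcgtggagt

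Cyp2b9 and Cyp2b13 were identical at 248 of 250 positions (99.2%), and counted from the first base shown the changes from Cyp2b9 to Cyp2b13 were T48C and C104T. Cyp2b10 was identical to either of them at 182 of 260 aligned positions (70.0%). In the capitalized stretch, counted from its own first base, Cyp2b9 and Cyp2b13 both carried the change C4T relative to Cyp2b10. Patterns were searched on both strands, and no matches overlapped. TTGCNNAA had 1 match in each gene, at bases 193 to 200 in Cyp2b10 and at bases 71 to 78 in Cyp2b9 and Cyp2b13, and was held by 9.56% of 32851 promoters of this length. AGGTCA, a nuclear receptor half-site, matched at bases 113 to 118 of Cyp2b9 and Cyp2b13 and nowhere in Cyp2b10, and was held by 14% of promoters. TTCNNNGAA, the pattern of STAT5, was held by 7.02% of promoters and TATAAA by 12.4%, and neither was found in these windows. The known CAR enhancer of Cyp2b10 lies farther upstream than the bases shown.

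The transcripts are also alike. Between the longest coding transcripts of GENCODE M21, Cyp2b9 and Cyp2b13 were 89.2% identical, Cyp2b9 and Cyp2b10 84.4%, and Cyp2b10 and Cyp2b13 83.9%. Of the windows of 50 bases in Cyp2b9, 10.8% occurred unchanged in Cyp2b13 and 0.547% in Cyp2b10, and of those in Cyp2b10, 7.82% occurred in Cyp2b13. The target positions of the probes were not given in the sources used here, so reads that a probe took from a neighbouring gene could not be told from its own, and the values of Cyp2b9 and Cyp2b13 are uncertain to that degree.

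Cyp2b9 was abundant in females and scarce in males except at 5 mg/kg. In vehicle females its probe read 136, 157, 109, 204 and 212 CPM, and in vehicle males 2.88, 1.3, 0.134, 4.65 and 5.54 CPM. Every vehicle male lay far below every vehicle female. At 5 mg/kg, the females read 85.0, 77.2, 82.2 and 89.2 CPM, and the males 70.5, 34.6, 23.6 and 45.6 CPM. All 4 females at 5 mg/kg were below all 5 of their controls, and all 4 males at 5 mg/kg were above all 5 of theirs. The group means in order of dose were 164 ± 44.0, 137 ± 18.2, 132 ± 37 and 83.4 ± 5.03 CPM in females (SD, n = 5, 5, 4 and 4). In males they were 2.90 ± 2.25, 1.19 ± 0.611, 3.46 ± 2.03 and 43.6 ± 20.1 CPM (SD, n = 5, 5, 5 and 4). The 5 mg/kg difference from vehicle, on the log2 scale, was 3.91 (SE 0.44) in males, a 15.1-fold higher level, and -0.97 (SE 0.39) in females, a level 0.51 times that of controls. Over all probes, 4.21% passed the test as higher in males and 2.26% as lower in females between these groups, which is given as background only. The share of all probes whose groups stood apart was not counted.

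**Figure D1:**
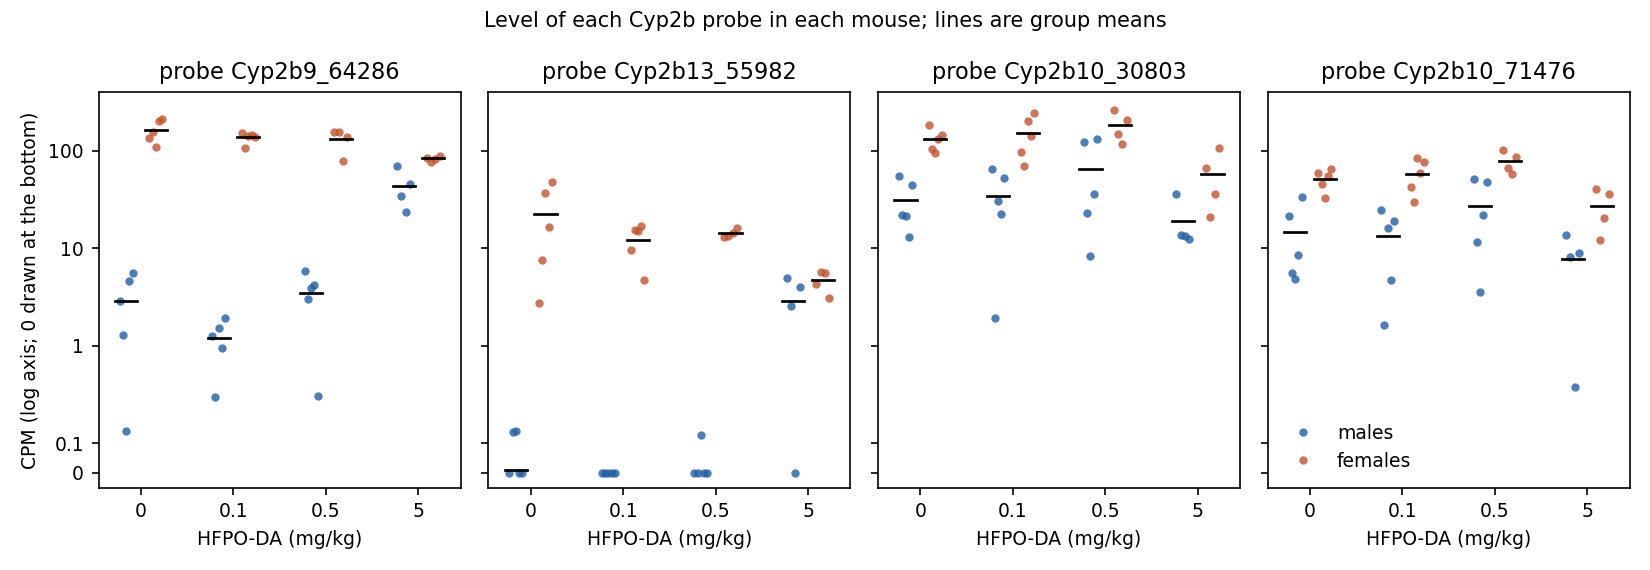
Level of each of the 4 Cyp2b probes in each mouse (CPM, log axis, with 0 drawn at the bottom) by dose of HFPO-DA, males in blue and females in red, with black lines for group means. Cyp2b9 and Cyp2b13 stood far apart between the sexes up to 0.5 mg/kg and close together at 5 mg/kg, where male means of 43.6 and 2.88 CPM faced female means of 83.4 and 4.69 CPM, while both Cyp2b10 probes kept lower male means at every dose.

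Ordered by group mean, Cyp2b9 ran from vehicle females (164 CPM) through the other females, dose by dose, to males at 5 mg/kg (43.6 CPM), then males at 0.5 mg/kg, vehicle and 0.1 mg/kg (1.19 CPM). The ranges of neighbouring groups overlapped except that males at 5 mg/kg were clear of the group on either side. The male mean was 1.77% of the female mean in vehicle mice, 0.869% at 0.1 mg/kg, 2.62% at 0.5 mg/kg and 52.3% at 5 mg/kg. Without the smallest male library or any other single library, the male difference at 5 mg/kg stayed between 3.55 and 4.27 and the female difference between -1.10 and -0.86 on the log2 scale.

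Cyp2b13 followed the same course at lower counts. In vehicle females its probe read 2.72, 7.58, 37.1, 16.4 and 48.2 CPM, a wide spread, and at 5 mg/kg 4.32, 5.75, 5.62 and 3.06 CPM. The means in females in order of dose were 22.4 ± 19.5, 12.3 ± 5.08, 14.3 ± 1.45 and 4.69 ± 1.26 CPM (SD, n = 5, 5, 4 and 4). The groups at 0 and 5 mg/kg overlapped, since the lowest control lay below all 4 females at 5 mg/kg. The log2 difference was -2.25 (SE 0.67), a level 0.21 times that of controls.

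In males, Cyp2b13 gave 2 counts in all over the 5 vehicle mice, 0 counts over the 5 mice at 0.1 mg/kg and 1 count over the 5 mice at 0.5 mg/kg. At 5 mg/kg it gave 70 counts over 4 mice, or 4.95, 2.54, 0 and 4.02 CPM. Of the males at 5 mg/kg, 3 were above all vehicle males, and the mouse without a count had the smallest library, in which 0 counts allow a level of up to 1.13 CPM. The ratio of the group sums of males at 5 mg/kg to vehicle males, scaled to library size, was 59.4. Its exact counting interval was 15.8 to 500.0, which covers counting error only. In order of mean, all 4 female groups came before males at 5 mg/kg and the other males, with overlapping ranges between neighbours. At 5 mg/kg the male mean was 61.4% of the female mean, against 0.235% in vehicle mice, and the female sum was 1.5 times the male sum (200 against 70 counts) beside 453 times (125 to 3750) in vehicle mice.

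Cyp2b10 was lower at 5 mg/kg than in vehicle controls in both sexes, by group mean, with overlapping groups. Its first probe, Cyp2b10_30803, read 182, 104, 94.7, 131 and 146 CPM in vehicle females and 67.2, 21.0, 35.8 and 107 CPM in females at 5 mg/kg. In males it read 55.2, 21.9, 21.4, 13.2 and 44.8 CPM with vehicle and 36.3, 13.8, 13.5 and 12.4 CPM at 5 mg/kg. In females 3 of the 4 mice at 5 mg/kg lay below the lowest control, and in males 1 of 4 did. The log2 difference from vehicle was -0.73 (SE 0.60) in males and -1.18 (SE 0.58) in females. The second probe, Cyp2b10_71476, gave -0.87 (SE 0.61) in males and -0.91 (SE 0.58) in females. Without male replicate 1 at 5 mg/kg the male difference of Cyp2b10_30803 was -1.28, and without vehicle male replicate 1 it was -0.44. The difference between the sexes in these log2 changes was 0.46 (SE 0.82) for Cyp2b10_30803 and 0.04 (SE 0.85) for Cyp2b10_71476, beside 4.89 (SE 0.60) for Cyp2b9.

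At the middle dose the Cyp2b10 means were the highest of each sex. For Cyp2b10_30803 they were 131 ± 34.9, 150 ± 72.5, 184 ± 63.9 and 57.8 ± 38.2 CPM in females and 31.3 ± 17.8, 34.3 ± 24.8, 64.4 ± 58.4 and 19 ± 11.6 CPM in males in order of dose (SD, n = 5, 5, 4 and 4, and 5, 5, 5 and 4). Males at 0.5 mg/kg spread from 8.39 to 131 CPM, so this order lies within the spread between mice. Every pair of neighbouring groups in the order of Cyp2b10 means overlapped, for both probes. Over the 4 doses the male mean was between 22.9% and 35% of the female mean for Cyp2b10_30803 and between 22.8% and 34.9% for Cyp2b10_71476.

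The 2 Cyp2b10 probes rose and fell together from mouse to mouse, and their log2 levels correlated at r = 0.965 over 18 females and r = 0.809 over 19 males. The ratio of Cyp2b10_30803 to Cyp2b10_71476 had a median of 2.34 in females (1.65 to 3.2) and 2.41 in males (1.18 to 36). The ratio of 36 came from the smallest male library at 5 mg/kg, where Cyp2b10_71476 had 1 count. Levels of Cyp2b9 and Cyp2b13 correlated at r = 0.906 over all 37 mice, 0.719 within males and 0.45 within females. Those of Cyp2b9 and Cyp2b10 (Cyp2b10_30803) correlated at r = 0.652 within females and -0.0619 within males. These are descriptions over mice that share sex and dose.

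Mice at the lower doses, whose values did not define the group, allowed tests of the difference between the sexes at each lower dose and the step from 0.1 to 0.5 mg/kg. The genes were chosen with earlier results of these data known, so the tests are not fully independent of the choice. At 0.1 mg/kg, males were below females for all 4 probes, in the quasi-likelihood test of edgeR with p-values adjusted over 18570 probes after Benjamini and Hochberg. Over all probes, 2.49% were lower in males at this dose. Cyp2b9 read 1.27, 0.297, 1.52, 0.953 and 1.91 CPM in males and 153, 106, 142, 145 and 139 CPM in females at 0.1 mg/kg, a log2 difference of -6.77 (SE 0.50, adjusted p = 1.28e-13). Cyp2b13 was at 0 counts in all 5 males and at 9.58, 15.3, 15, 16.9 and 4.69 CPM in the females, so that females were at least 153-fold higher against a floor of 3 counts over the male group (adjusted p = 4.86e-08). The filter kept Cyp2b13 through the females and dropped it when males were fitted alone. Its tests between the sexes, here and at 0.5 mg/kg, were thus largely set in advance. For Cyp2b10 the log2 difference was -2.12 (SE 0.56) with Cyp2b10_30803 (adjusted p = 0.0195) and -2.12 (SE 0.57) with Cyp2b10_71476 (adjusted p = 0.0216).

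At 0.5 mg/kg, the test was passed by 2 of the 4 probes, against 2.04% of all probes lower in males. Cyp2b9 read 5.80, 3.02, 3.95, 4.21 and 0.307 CPM in males and 156, 156, 77.9 and 138 CPM in females, a log2 difference of -5.23 (SE 0.46, adjusted p = 2.74e-11 by edgeR). Cyp2b13 read 13, 13.5, 14.4 and 16.3 CPM in females and had 1 count in the males, a ratio of 472 (84.5 to 18700) with an adjusted p of 2.08e-07 by edgeR. That count came from replicate 3, and without this mouse, with the males at 0, the fitted log2 difference went from -8.35 to -9.99, which is no bound. Cyp2b10 read 124, 23, 8.39, 35.6 and 131 CPM in males and 261, 148, 117 and 208 CPM in females with Cyp2b10_30803. Its log2 difference of -1.51 (SE 0.57) missed the threshold with Cyp2b10_30803 (adjusted p = 0.197) and with Cyp2b10_71476 (adjusted p = 0.2). The sexes overlapped on Cyp2b10_30803, while on Cyp2b10_71476 all males (up to 51.4 CPM) lay below all females (from 57.1 CPM). How often the sexes stood apart over all probes was not counted. Without a filter on low counts, both Cyp2b10 probes passed at this dose (adjusted p = 0.0284 and 0.0472 by edgeR), and without replicate 5 of the males at 0.5 mg/kg Cyp2b10_30803 passed (adjusted p = 0.0988).

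**Figure D2:**
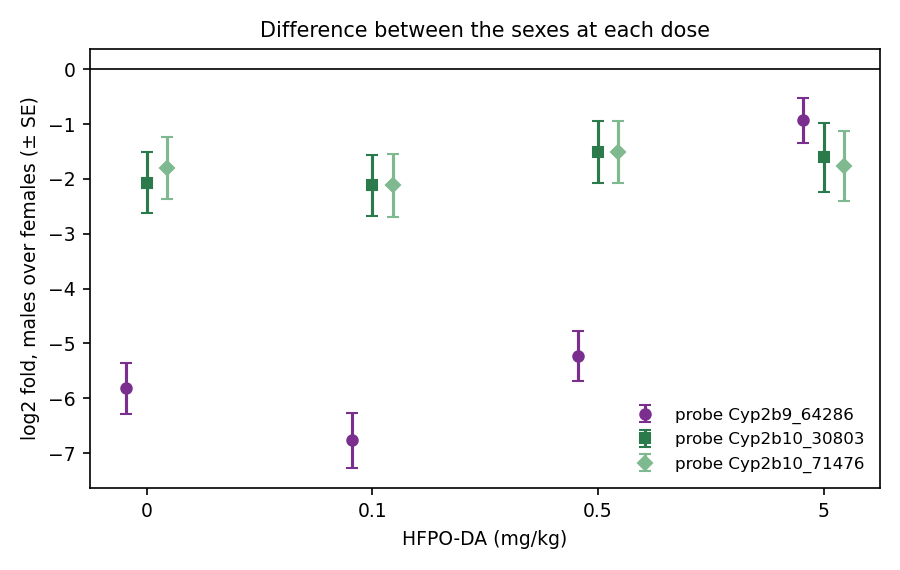
Log2 fold of males over females (vertical axis, points with bars of ± SE from edgeR) at each dose of HFPO-DA for the Cyp2b9 probe and both Cyp2b10 probes. Cyp2b13 is left out because its male counts were at or near 0 below 5 mg/kg. The Cyp2b9 difference was -5.82 with vehicle, -6.77 and -5.23 at the lower doses and -0.93 at 5 mg/kg, while the Cyp2b10 differences lay between -2.12 and -1.51.

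From 0.1 to 0.5 mg/kg, 0 of the 4 Cyp2b probes passed the test in either sex with edgeR. None passed with DESeq2 either, which in females gave no adjusted p for Cyp2b13 and Cyp2b10_71476. For Cyp2b13 in males, counts were 0 at 0.1 mg/kg and 1 at 0.5 mg/kg. The lack of a call there says nothing, since such counts could not have passed. At an unadjusted p under 0.05 with edgeR, 1 of 4 differed in males, 0 of 4 in females and 1 of 4 in the interaction. Of all 18570 probes, 1576 in males, 649 in females and 920 in the interaction had such a p by edgeR. In males, Cyp2b9 had a log2 difference of 1.49 (SE 0.49) with an unadjusted p of 0.00402 and an adjusted p of 0.471 by edgeR, and 0.135% of all probes passed in either direction. The groups overlapped through 1 male at 0.5 mg/kg with 0.307 CPM. Cyp2b10 in males differed by 0.90 (SE 0.55) with Cyp2b10_30803 and 1.02 (SE 0.56) with Cyp2b10_71476 (adjusted p = 0.756 and 0.671 by edgeR). In females the differences were -0.05 (SE 0.38) for Cyp2b9, 0.22 (SE 0.62) for Cyp2b13, 0.29 (SE 0.56) and 0.42 (SE 0.57) for Cyp2b10, with adjusted p-values of 1 by edgeR and 0.07% of all probes passing. The sexes were not shown to differ in this step, since the interaction for Cyp2b9 was 1.54 (SE 0.62, adjusted p = 0.937 by edgeR) and 0.00539% of all probes passed.

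The lower doses are set against vehicle as a description. The log2 difference of Cyp2b9 was -1.21 (SE 0.49) at 0.1 mg/kg and 0.28 (SE 0.44) at 0.5 mg/kg in males, and -0.26 (SE 0.36) and -0.31 (SE 0.39) in females. That of Cyp2b10 (Cyp2b10_30803) was 0.14 (SE 0.54) and 1.04 (SE 0.55) in males, and 0.19 (SE 0.53) and 0.48 (SE 0.56) in females. That of Cyp2b13 was -0.86 (SE 0.59) and -0.65 (SE 0.62) in females, and in males Cyp2b13 had only 0 to 2 counts in each of these groups. The female difference of Cyp2b13 at 0.1 mg/kg, the male difference of Cyp2b9 at 0.1 mg/kg and that of Cyp2b10_30803 at 0.5 mg/kg were thus about as large as the female Cyp2b9 difference at 5 mg/kg (-0.97). Every one of these groups overlapped its controls.

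The other Cyp2b genes on the assay were hardly read. Cyp2b19, known as a keratinocyte enzyme, had counts in 3 of 37 mice, and Cyp2b23 had none in any mouse. Neither passed the filter.

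The neighbouring Cyp2 genes of the chromosome 7 cluster did not move as a block. Of 6 tested, 2 rose and 1 fell in males at 5 mg/kg, and 0 rose and 1 fell in females (edgeR, adjusted p under 0.10), where over all probes 4.21% rose and 8.49% fell in males and 2.26% rose and 2.26% fell in females. The list's median log2 difference was 0.04 in males, beside -0.12 over all probes, and -0.28 in females, beside -0.01. Cyp2a22 rose in males from 0.101 ± 0.102 to 13 ± 2.54 CPM (SD, n = 5 and 4, log2 difference 6.77, SE 1.04, adjusted p = 9e-06 by edgeR). In females Cyp2a22 had a difference of 1.08 (SE 0.65) that missed the threshold (adjusted p = 0.593), and the sexes differed in it by 5.68 (adjusted p = 0.0256 by edgeR). Cyp2a4, a female-predominant steroid 15α-hydroxylase, rose in males by 1.76 (SE 0.57, adjusted p = 0.0445) and had -0.11 in females (adjusted p = 1). Cyp2a4 is nearly identical to Cyp2a5, so the reads of that pair are uncertain. Cyp2f2 fell in males by 0.53 (SE 0.20, adjusted p = 0.0881) and Cyp2a12 fell in females by 2.32 (SE 0.67, adjusted p = 0.0379, both edgeR).

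**Figure D3:**
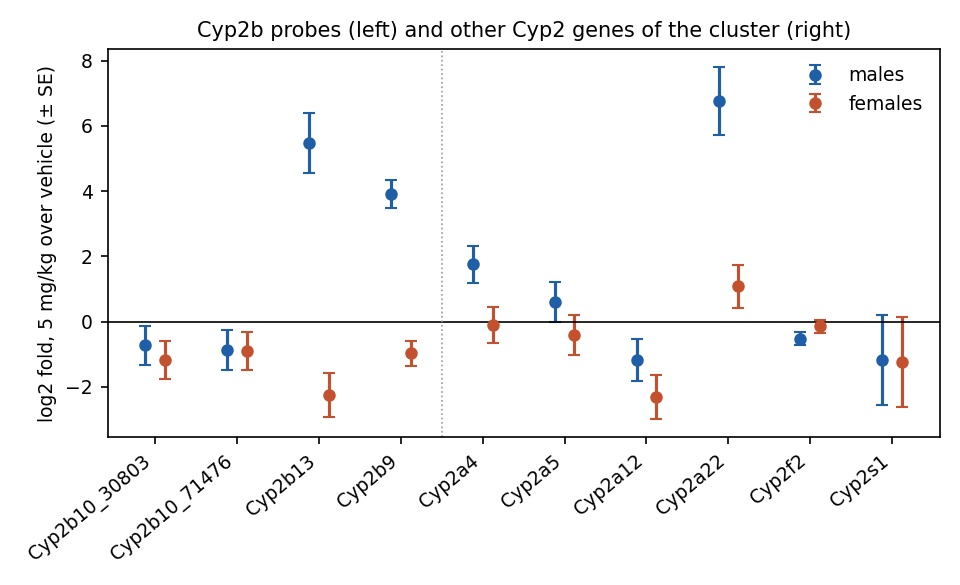
Log2 fold of 5 mg/kg over vehicle (points, with bars of ± SE from edgeR) in males (blue) and females (red) for the 4 Cyp2b probes on the left and 6 other Cyp2 genes of the same cluster on the right. The male value of Cyp2b13 rests on 2 vehicle counts. Cyp2b9, Cyp2b13 and Cyp2a22 lay highest in males, at 3.91, 5.48 and 6.77, while Cyp2b10 was below 0 in both sexes.

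Other known target genes of CAR and PXR changed in both directions, and the activity of these receptors was not tested. Of 31 tested outside Cyp2b, 3 rose and 7 fell in males and 3 rose and 5 fell in females at 5 mg/kg. Over all probes, 4.21% rose and 8.49% fell in males, and 2.26% rose and 2.26% fell in females. The median log2 difference was 0.08 in males and 0.10 in females, beside -0.12 and -0.01 over all probes. The phenobarbital-inducible P450 gene Cyp2c29 fell from 1360 ± 470 to 237 ± 64.5 CPM in males (log2 difference -2.52, SE 0.23, adjusted p = 9.35e-11) and from 1270 ± 258 to 576 ± 147 CPM in females (-1.13, SE 0.22, adjusted p = 0.000437, both edgeR). Cyp2c54 fell in males by 4.11 (SE 0.40) and in females by 2.18 (SE 0.36), and Cyp2c50 fell by 4.18 (SE 0.42) and by 2.47 (SE 0.36). These related Cyp2c genes may share reads. Ces2a, a carboxylesterase, fell in males by 1.42 (SE 0.21, adjusted p = 6.44e-06) and in females by 0.68 (SE 0.21, adjusted p = 0.0567, both edgeR). Aldh1a1, which oxidizes retinal, rose in males by 0.71 (SE 0.24, adjusted p = 0.0599) and in females by 1.22 (SE 0.24, adjusted p = 0.000856, both edgeR).

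The receptors themselves gave little difference at 5 mg/kg. CAR (Nr1i3) was at 111 ± 24.9 CPM in vehicle males and 111 ± 16.6 CPM at 5 mg/kg, and at 186 ± 61.5 and 183 ± 55.1 CPM in females (log2 differences 0.00 and -0.02, SE 0.26 in each, adjusted p = 1 in each by edgeR). PXR (Nr1i2) had log2 differences of 0.19 (SE 0.31, adjusted p = 0.801) in males and 0.23 (SE 0.31, adjusted p = 0.99) in females by edgeR. Of 13 receptors and regulators of Cyp2b transcription, 0 rose and 1 fell in males and 0 rose and 2 fell in females, where 8.49% of all probes fell in males and 2.26% in females, so that the male count is near the background. Egfr, whose ligand holds CAR in its inactive state, fell by 1.22 (SE 0.30, adjusted p = 0.00601) in males and by 1.40 (SE 0.30, adjusted p = 0.00239) in females (edgeR). Rxra, the partner receptor of CAR and PXR, fell by 0.55 (SE 0.16, adjusted p = 0.0437) in females, and had -0.42 (SE 0.16, adjusted p = 0.1) in males by edgeR. The C/EBPα gene Cebpa had -0.56 (SE 0.24) in males and -0.46 (SE 0.24) in females, neither past the threshold.

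Of 13 genes for electron donors and haem supply, which every P450 enzyme depends on, 1 rose and 3 fell in males and 3 rose and 1 fell in females. The shares of all probes were 4.21% and 8.49% in males and 2.26% in each direction in females, and the counts of 1 are single genes. Alas1, the first enzyme of haem synthesis and also a CAR target, went in opposite directions. It fell in males from 44.0 ± 21.7 to 22.3 ± 10.7 CPM (log2 difference -0.98, SE 0.35, adjusted p = 0.0752) and rose in females from 28.1 ± 15.3 to 68.7 ± 24.7 CPM (1.29, SE 0.34, adjusted p = 0.0177), and the sexes differed by -2.27 (adjusted p = 0.0165, all edgeR). Female means were 66.2 ± 6 CPM at 0.1 mg/kg and 50.8 ± 11.1 CPM at 0.5 mg/kg, so the rise over vehicle was not ordered by dose. Male means at these doses were 36.7 ± 12.2 and 51.1 ± 14 CPM. Neither dose passed the edgeR test against vehicle in either sex. Cyb5a, a microsomal electron donor, fell in both sexes by 0.66 and 0.55 (SE 0.16 in each), and Cyb5b, its mitochondrial counterpart, rose in both by 0.60 and 0.61 (SE 0.18 in each).

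Genes known as female-biased in liver gave a frame for Cyp2b9 and Cyp2b13. Of 17 tested outside Cyp2b, 14 were lower in vehicle males than in vehicle females, with a median log2 difference of -5.86, beside -0.06 over all probes, of which 1.36% were lower in males. At 5 mg/kg, 2 rose and 2 fell in males and 0 rose and 8 fell in females, with medians of 0.35 in males and -1.26 in females (-0.12 and -0.01 over all probes). Of all probes, 4.21% rose and 8.49% fell in males and 2.26% fell in females, so that the 2 falls in males are near the background. The sexes differed in this effect for 6 of the 17, and 0.63% of all probes did so. Hao2, a peroxisomal hydroxyacid oxidase, was the only list gene beside Cyp2a4 to rise in males, from 0.713 ± 1.24 to 16.4 ± 13 CPM (4.52, SE 0.67, adjusted p = 5e-06), and it had 0.04 (SE 0.51, adjusted p = 1) in females, where it was at 96.2 ± 35 and 98.9 ± 18.3 CPM (edgeR).

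The falls in females were larger for some of these genes than for Cyp2b9. Cyp2c69 fell from 79.8 ± 53.8 to 2.52 ± 1.57 CPM (-4.98, SE 0.54, adjusted p = 7.81e-09 by edgeR). Cyp3a16 fell from 325 ± 91.2 to 37.9 ± 15.8 CPM (-3.10, SE 0.53), Cyp3a44 from 91.8 ± 32.9 to 13.6 ± 12.3 CPM (-2.75, SE 0.48) and Cyp3a41a from 2740 ± 802 to 725 ± 250 CPM (-1.92, SE 0.28). In males none of these 4 passed the test at 5 mg/kg, with log2 differences of 1.56 for Cyp2c69, 1.56 for Cyp3a16, -0.15 for Cyp3a44 and -0.21 for Cyp3a41a. Cyp39a1, an oxysterol hydroxylase, fell in males to 3 counts in all, with vehicle males 54.2 times higher (18.4 to 265), and Cyp2c40 fell in both sexes by 0.98 (SE 0.34) and 1.36 (SE 0.33). Cyp3a41a has a near-identical copy, Cyp3a41b, and reads of that pair are uncertain.

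Of 17 male-biased genes tested, 0 rose and 9 fell in males and 3 rose and 1 fell in females at 5 mg/kg, with medians of -1.41 and -0.07 (-0.12 and -0.01 over all probes). Of all probes, 4.21% rose and 8.49% fell in males, and 2.26% rose and 2.26% fell in females. Cyp4a12a, a male-predominant fatty acid ω-hydroxylase, rose in females from 0.972 ± 0.959 to 197 ± 82.8 CPM (7.65, SE 0.68, adjusted p = 6.11e-11) and had 0.10 (SE 0.50, adjusted p = 0.947) in males (edgeR). Its close copy Cyp4a12b rose in females by 4.11 (SE 0.77). Gstp1, a glutathione S-transferase, fell in males by 1.27 (SE 0.25, adjusted p = 0.000373) and rose in females by 0.98 (SE 0.24, adjusted p = 0.00866, edgeR). Ugt2b1 fell in both sexes by 1.74 and 1.85 (SE 0.24 in each), and C6 and Cyp7b1 fell in males by 1.01 (SE 0.23) and 1.76 (SE 0.46).

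**Figure D4:**
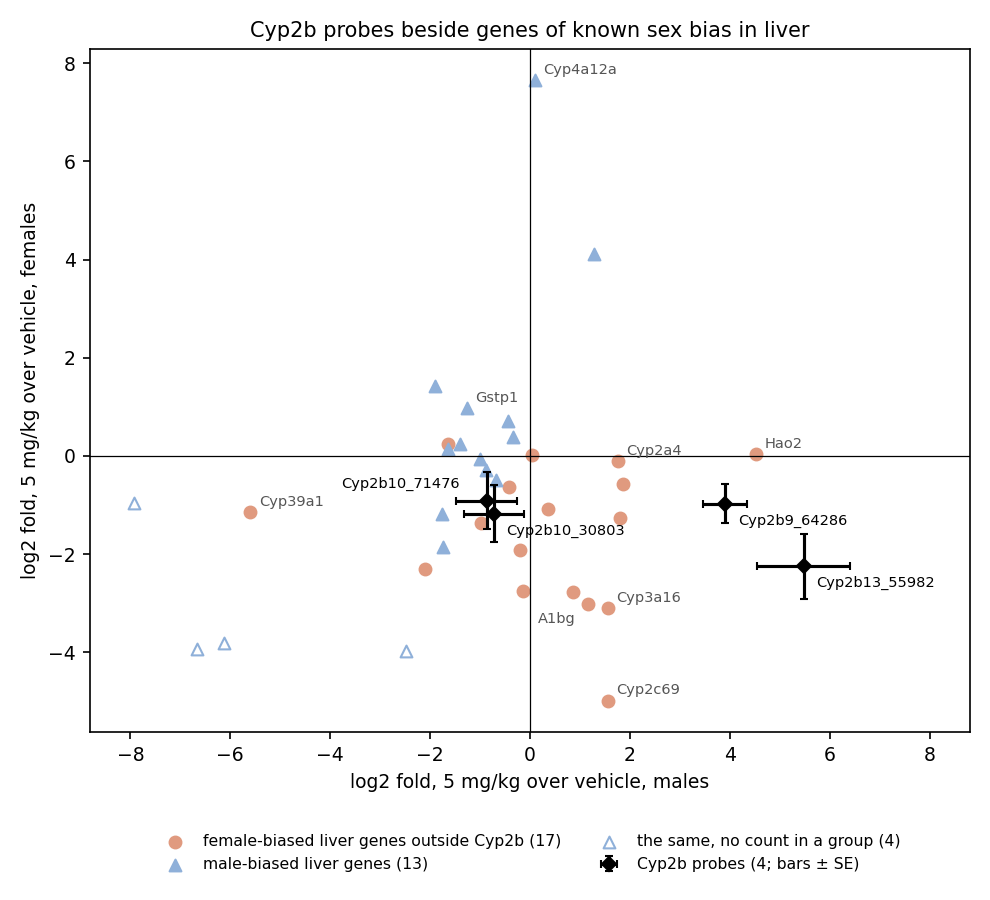
Log2 fold of 5 mg/kg over vehicle in males (horizontal axis) against females (vertical axis) for the 4 Cyp2b probes (black, bars of ± SE), 17 female-biased genes (red circles) and 17 male-biased genes (blue triangles, open for 4 genes with no count in a group, whose fitted folds are not reliable). Cyp2b9 and Cyp2b13 lay at the lower right, higher in males and lower in females, with Hao2 nearest on the male axis at 4.52, while both Cyp2b10 probes lay below 0 on both axes.

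At 0.5 mg/kg, 3 genes of these lists passed against vehicle and are named for that reason after their values were seen. They were Abcc2 (adjusted p = 0.0997) and Cpox (adjusted p = 0.0659) in males and Cyp4a12a in females (adjusted p = 0.000269), all raised by edgeR, where 0.625% and 0.113% of all probes passed. The female count fell to 0 without replicate 3 of the females at 0.5 mg/kg and rose to 3 without vehicle female replicate 3. Of the 37 mice, leaving out any of 25 moved the male count of 2 by more than 1.5 times, to 4 in the case of replicate 4 at 0.1 mg/kg and to 1 or 0 otherwise, with 0 without replicate 4 at 0.5 mg/kg or vehicle replicates 3, 4 or 5.

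The probes most like each Cyp2b gene were found from log2 CPM over all 37 mice. For Cyp2b9 they were the 2 probes of Hao2 (Pearson r = 0.922 in each), then Acss3 (0.881), Cyp3a16 (0.875) and Sult2a1 (0.862). For Cyp2b13 they were Hao2 (0.893 and 0.875), Slc22a26 (0.882), Sult2a1 (0.881) and Cux2 (0.873). For Cyp2b10 the closest were Eci3 (0.795), Selenop (0.772), N4bp2l1 (0.769), Cyp3a41b (0.765) and Bche (0.764). These values are set largely by sex. After each sex's mean was subtracted, the closest to Cyp2b9 were Cttn (0.78), Cidea (0.77), Rtn4 (0.754), Hmgb3 (0.72) and Hao2 (0.68). In the same way Cyp2b10 was closest to Usp54 (0.665), Madd (0.634), N4bp2l1 (0.625), Ell2 (0.625) and Setdb2 (0.616). Cyp2b13, at or near 0 counts in most males, was closest to Igkv10-94 (0.707), Hr (0.693), Col11a1 (0.665), Cib3 (0.663) and Cidea (0.641), which rests on few counts. All are descriptions over mice that share sex and dose.

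Markers of liver zones moved at the same dose. Cyp2b genes are expressed mainly around the central vein. Of 7 pericentral markers, at 5 mg/kg 4 fell in males and 3 fell in females, beside 8.49% and 2.26% of all probes. Their summed level ran from 4800 to 9980 CPM in vehicle males and from 1720 to 4250 CPM at 5 mg/kg, and from 5030 to 6430 CPM and from 2540 to 5470 CPM in females. Lgr5 was at 0 in males at 5 mg/kg. Of 7 periportal markers, 7 fell in males and 3 in females against the same shares of all probes, with sums from 13900 to 21700 CPM in vehicle males and from 6550 to 10900 CPM at 5 mg/kg, and from 12200 to 18500 CPM and from 8790 to 15400 CPM in females. The part of these changes in the Cyp2b values was not tested. The 5 hepatocyte markers on the assay were abundant in every mouse, with sums of 11600 to 22600 CPM.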

How the data were processed

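Liver of 37 mice was measured by TempO-Seq. The authors removed 3 of 40 mice for depth or detected probes, and deposited raw counts of reads per probe. Per the labels, bcl2fastq 2.17.1.14 and Bowtie were used, and no genome build was named. From the deposited counts, filterByExpr of edgeR (4.0.16, R 4.3.3) kept 18570 probes of 13004 genes given the 8 sex-by-dose groups. TMM factors were computed, and a cell-means quasi-likelihood fit took in all mice at once. SE is an approximation, taken as the absolute log2 difference divided by the square root of the test's F value. Benjamini-Hochberg adjustment covered all probes tested, with a threshold of 0.10. The study used DESeq2, which entered as an alternative (1.42.0). CPM uses the TMM-normalized library size. Libraries were checked for duplicates and none was found. The tests were tried on simulated data. Replicates are separate mice.

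The members and lists were chosen with earlier results of these data known. A listed gene is not reported here and enters no count of its list. Genes were named by rule: every Cyp2b probe; up to 4 genes per list and sex with the smallest p at 5 mg/kg, by the probe with the most counts; Nr1i3 and Nr1i2; and the 5 probes most like each member by Pearson correlation of log2 CPM (prior count 2). Marker lists covered hepatocytes and their zones, cholangiocytes, endothelium, Kupffer and stellate cells, lymphocytes, erythroid cells and adipocytes. Sequences came from RefSeq (GRCm38.p6) and GENCODE M21, where all 3 genes were found, and were compared with Biopython 1.88. Alternatives were DESeq2 size factors, no filter, a mean of at least 10 counts, DESeq2, each sex fitted apart, probes summed per gene, a robust fit, a 0.05 threshold, and each mouse left out in turn. Leaving out libraries under 5000000 counts was chosen after seeing the data. Ratios of count sums are scaled to the normalized library sizes of the groups, and intervals on counts cover counting error only.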

Additional observations from a re-analysis of the deposited data

Results flagged for a closer look

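Within groups of 4 or 5 mice, 2 Cyp2b values stood apart by Dixon's criterion, which chance meets in about 1 of 20 groups. Male replicate 1 at 5 mg/kg read 36.3 CPM on Cyp2b10_30803, and the other 3 mice read 12.4 to 13.8 CPM. Male replicate 3 at 0.5 mg/kg read 0.123 CPM on Cyp2b13, which is 1 count, and the other 4 mice read 0. A single count among values of 0 always meets the criterion.

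The 5 mg/kg effect differed between males and females, by edgeR's interaction test with adjusted p under 0.10, for 12 genes of the lists other than cell type markers, and for 1 hepatocyte marker, Tat (-3.23, adjusted p = 0.0157). Over all probes, 0.63% passed this test. Given as the log2 change in males minus that in females, the difference was 5.68 for Cyp2a22, 4.66 for Cyp3a16, 1.71 for Cyp3a41a, 6.55 for Cyp2c69, 4.48 for Hao2 and 4.16 for A1bg. It was -1.38 for Cyp2c29, -1.93 for Cyp2c54, -2.27 for Alas1, -4.45 for Cyp39a1, -7.55 for Cyp4a12a and -2.26 for Gstp1. The values of Cyp2a22, Cyp2c69 and Cyp39a1 rest on male groups with few counts. A1bg and Tat are outside the naming rule and are named because their difference passed the test.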

How the results depend on the processing

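Differences between the sexes at 0.1 mg/kg passed for all 4 Cyp2b probes in each alternative at probe level that compares the sexes, which fitting each sex apart does not. At 0.5 mg/kg 2 probes passed, 4 without a filter on low counts, and 2 to 3 when single mice were left out. No alternative gave a call for the step from 0.1 to 0.5 mg/kg, though DESeq2 gave Cyp2b13 and Cyp2b10_71476 no adjusted p in females. In that step in females Cyp2b9 turned from -0.05 to 0.01 without 0.1 mg/kg replicate 1 and to 0.13 without 0.5 mg/kg replicate 3 (range -0.15 to 0.13), and the interaction of Cyp2b13 turned from 1.42 to -0.23 without male 0.5 mg/kg replicate 3 (range -0.23 to 1.76), none past the threshold. The list genes passing at 0.5 mg/kg in males numbered 2, and 4 with DESeq2 size factors, 5 with no filter, 4 with a mean of at least 10 counts, 5 with DESeq2, 1 with each sex fitted apart, 0 at a threshold of 0.05 and 0 to 4 when single mice were left out. In females at 0.5 mg/kg, 1 passed, 2 with DESeq2 and 0 to 3 when single mice were left out. At 5 mg/kg in males 29 passed, and 19 in the same fit at the stricter threshold of 0.05. Why counts moved in settings other than this threshold was not tested. The median of all probes in males at 5 mg/kg was -0.12 with TMM and -0.03 with DESeq2 size factors. Without the libraries under 5000000 counts, each test of a Cyp2b probe kept its direction and side of the threshold. The described Cyp2b differences between 5 mg/kg and vehicle kept their direction. In the same setting, list genes passing at 5 mg/kg in males fell from 29 to 21. List genes whose 5 mg/kg effect differed between the sexes went from 12 to 11. The other counts of list genes did not change. No paired analysis was possible because the labels give no replicate numbers and those used here only name the mice. Cyp2b13 in males is limited by depth, with 0 to 2 counts per group below 5 mg/kg.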

Other observations

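Among markers of other liver cell types, 5 lists gave no call at 5 mg/kg in either sex (edgeR, adjusted p under 0.10). They held 3 cholangiocyte, 5 Kupffer cell, 5 stellate cell, 3 lymphocyte and 2 erythroid markers that could be tested, 18 genes in all, of which 1 in each sex had an unadjusted p under 0.05. Of all 18570 probes, 4330 in males and 2292 in females had such a p by edgeR. Of 5 endothelial markers, 1 fell in males and 0 in females. Of 5 hepatocyte markers, 1 fell in each sex. These are single genes, beside 8.49% of all probes that fell in males and 2.26% in females. Summed adipocyte markers stayed below 1 CPM in every mouse. Summed erythroid markers ran from 51 to 104 CPM in vehicle males and from 0.885 to 6.27 CPM in vehicle females.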
